A study of Homo sapiens with 60 samples.

Results

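This account describes 10 genes of the Hippo output, the coactivators YAP1 and WWTR1 (the gene of TAZ), the transcription factors TEAD1, TEAD2, TEAD3 and TEAD4, and the direct targets CCN1, CCN2, ANKRD1 and AMOTL2. They were chosen by name, and all 10 are among the 19712 genes of the files. RNA was sequenced from the EGFR-mutant lung adenocarcinoma lines PC9, HCC827, H1975 and HCC2935, each in 5 arms of 3 libraries, 60 libraries in all. Osimertinib is an irreversible inhibitor of mutant EGFR, given at 500 nM throughout. Parental cells spent 21 days without drug and then received vehicle (DMSO) or osimertinib for 24 h, the acute arm. Drug-tolerant persisters (DTPs), the cells left alive by 21 days of osimertinib, were harvested at once, after 24 h without drug (short washout), or later (long washout). The long washout lasted 7 days in PC9, 4 days in HCC827, 3 days in H1975 and 10 days in HCC2935, so the arm does not have 1 duration across the lines. All cells were established lines kept as monolayers, without stroma or immune cells, and the triplicates are biological replicates of 1 line each, not separate tumours.

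YAP and TAZ have no DNA-binding domain of their own and act by binding TEAD factors, which sit on DNA. The Hippo kinases MST and LATS phosphorylate YAP and TAZ, which keeps both in the cytoplasm and marks them for degradation. Much of their control is therefore post-translational and is not seen in the RNA of YAP1 or WWTR1, so the RNA of direct targets is the usual readout. In EGFR-mutant lung cancer the pathway is studied as a route by which cells survive EGFR inhibition.

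Libraries held 17.7 to 49.1 M estimated counts, between 17.7 and 25.1 M in HCC827, the shallowest line, and between 38.7 and 49.1 M in H1975. Squared differences between replicates averaged 8.97 to 139 times what counting error alone would give. The long washout was labelled as the time at which growth resumed, but MKI67, a marker of cycling cells, averaged 18.6 TPM there in HCC827 against 18.4 in persisters and 50.1 under DMSO. In H1975 these means were 18.8, 23.6 and 77.3 TPM, while PC9 had returned to 37.7 against 43.1 TPM under DMSO and HCC2935 to 37.9 against 60.2. All 5 epithelial markers were present in each line, but CDH1, which encodes E-cadherin, averaged 84.5 TPM under DMSO and 2.37 TPM in persisters of H1975. The 5 markers summed to 2350 to 2953 TPM in DMSO and 1636 to 2288 TPM in persister libraries of H1975. These ranges were 6220 to 7924 and 2350 to 3312 in HCC827, and 10048.5 to 10479 and 7007 to 8047 in HCC2935. In PC9 they were 6895 to 7048 and 8008 to 8243, higher in persisters. Transcript levels in TPM are scaled by gene length and library total and are used here to compare genes or lines. Counts scaled by library size after TMM normalization (CPM) are used to compare arms within a line. The change of the median gene from DMSO was higher on the TPM scale than on the CPM scale, by 0.27 (log2) in PC9 persisters and 0.16 in HCC2935 persisters.

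On GRCh38 (GENCODE 29), YAP1 lies at chr11:102110461-102233423, plus strand, and WWTR1 at chr3:149517235-149736714, minus strand. TEAD1 lies at chr11:12674591-12944483, plus strand, TEAD2 at chr19:49340595-49362457, minus strand, TEAD3 at chr6:35473597-35497076, minus strand, and TEAD4 at chr12:2959330-3040673, plus strand. CCN1, there named CYR61, lies at chr1:85580761-85583962, plus strand, and CCN2, there named CTGF, at chr6:131948176-131951373, minus strand. ANKRD1 lies at chr10:90912096-90921276, minus strand, and AMOTL2 at chr3:134355874-134375479, minus strand. Genes on the opposite strand overlap YAP1, WWTR1, TEAD1, TEAD2 (CD37 and DKKL1 among them) and CCN2, and YAP1 has 2 named pseudogenes. Whether reads were counted by strand is not given in the sources used here, so reads of these partners could not be told apart.

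The TEAD factors recognise the core GGAATG, which reads CATTCC on the other strand. The 250 bases upstream of the annotated starts were searched on both strands for this 6-base word in the RefSeq promoters of GRCh38.p14, where 7 of the 10 genes have an entry. CCN2 held 3 matches, ANKRD1 held 2, and YAP1 and 1 of the starts of AMOTL2 held 1 each, whereas WWTR1, TEAD2 and TEAD3 held none. Of all 35116 promoters, 11.9% held at least 1 match. The sequences of the 3 target genes are shown, 5′ to 3′ on the strand of the gene, because their RNA carries most of the results below. Capitals mark the matches.
CCN2 (chr6:131951373-131951622, minus strand): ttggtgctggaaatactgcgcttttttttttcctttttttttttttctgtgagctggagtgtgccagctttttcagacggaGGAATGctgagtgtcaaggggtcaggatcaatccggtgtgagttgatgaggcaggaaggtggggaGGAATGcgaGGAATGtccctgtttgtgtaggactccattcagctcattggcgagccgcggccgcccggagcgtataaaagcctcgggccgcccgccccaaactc
ANKRD1 (chr10:90921088-90921337, minus strand): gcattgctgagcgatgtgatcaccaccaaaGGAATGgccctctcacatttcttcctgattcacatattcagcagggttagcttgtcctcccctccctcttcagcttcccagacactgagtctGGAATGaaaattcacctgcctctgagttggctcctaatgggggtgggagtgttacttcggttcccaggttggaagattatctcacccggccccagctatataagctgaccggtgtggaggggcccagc
AMOTL2 (chr3:134374448-134374697, minus strand): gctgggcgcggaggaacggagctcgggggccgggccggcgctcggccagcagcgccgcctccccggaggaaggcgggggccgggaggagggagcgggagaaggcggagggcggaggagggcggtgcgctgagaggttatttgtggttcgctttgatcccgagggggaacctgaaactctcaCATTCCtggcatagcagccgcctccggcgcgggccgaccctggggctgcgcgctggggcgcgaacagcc
In CCN2 the matches start 169, 104 and 95 bases before the start, in ANKRD1 220 and 128 bases, and in AMOTL2 69 bases. CCN1, TEAD1 and TEAD4 were not used here. A match describes the sequence and is not evidence of binding in these cells.

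The lines started from different levels. All 10 genes differed between the lines under DMSO, in a test where 91.2% of all genes did, so this is no feature of the 10 genes. Levels are given in TPM, whereas the tests ran on TMM-scaled counts, so size and sign can differ between the scales. CCN1, a secreted matricellular protein, was the most abundant of the 4 targets in every line, at 703, 1153 and 511 TPM in the 3 HCC827 libraries. This was higher than the 141, 190.2 and 160.01 TPM of HCC2935, the next line (edgeR adjusted p = 5.34e-06). H1975 and PC9 did not differ in CCN1 from their neighbours in this order, with means of 115 and 96.0 TPM. CCN2, its close relative, followed another order, from 2.37, 1.24 and 0.859 TPM in PC9 to 14.9, 34.8 and 25.4 TPM in H1975. HCC827, at a mean of 4.17 TPM, and HCC2935, at 8.77, lay between and did not differ from each other (edgeR adjusted p = 0.137). ANKRD1, a cardiac ankyrin repeat protein, was lowest in HCC827 with a mean of 4.805 TPM. H1975 (14.7 TPM), HCC2935 (17.2) and PC9 (26.7) followed with no difference between neighbours. AMOTL2, a junctional scaffold of the angiomotin family that binds YAP, was lowest in H1975, at 24.9 TPM. PC9, HCC827 and HCC2935 had means of 52.3, 54.7 and 84.9 TPM, again with no difference between neighbours.

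YAP1 varied least among the lines, from 55.9, 68.7 and 56.7 TPM in H1975 to 95.9, 99.7 and 89.2 TPM in HCC827, with HCC2935 (71.5) and PC9 (87.0) between. H1975 and HCC2935 did not differ (edgeR adjusted p = 0.31), nor did PC9 and HCC827 (edgeR adjusted p = 0.844). WWTR1 followed the order HCC2935 (31.8 TPM), PC9 (39.5), H1975 (88.7) and HCC827 (137), and each step passed the test (edgeR adjusted p = 0.00526, 0.00121 and 0.00512). The TPM of neighbouring lines was close, with 29.3 to 35.5 in the HCC2935 and 34.2 to 43.3 in the PC9 libraries, which overlap. On the counts tested, the fitted WWTR1 steps were 0.72, 0.90 and 0.75 (log2), and YAP1 of PC9 lay 0.70 above HCC2935. The fitted sign went against the TPM order between PC9 and HCC827 for YAP1 (-0.02) and AMOTL2 (-0.09). Between PC9 and H1975 the same held for CCN1 (-0.01) and TEAD2 (-0.22), and none of these was called. The YAP1 to WWTR1 ratio of TPM was 2.22 ± 0.237 in PC9 and 2.27 ± 0.292 in HCC2935 (mean ± SD, n = 3), but 0.717 ± 0.140 in HCC827 and 0.726 ± 0.282 in H1975. The mix of TEAD factors differed by line. TEAD4 made up 51.2 ± 2.35% of the summed TEAD TPM in PC9 and 43.1 ± 4.79% in HCC827, where TEAD1 came next at 32.7 ± 3.22%. In H1975 TEAD1 led with 38.3 ± 3.24%, and in HCC2935 TEAD1, TEAD2 and TEAD3 held 29.4 ± 3.81%, 26.2 ± 1.59% and 25.3 ± 0.389%. TEAD2 and TEAD3 were highest in HCC2935, at 47.2 and 45.6 TPM, against 11.1 and 8.08 TPM in HCC827, the lowest line. HCC827 and H1975 did not differ in TEAD3 (edgeR adjusted p = 0.223), nor PC9 and H1975 in TEAD2 (edgeR adjusted p = 0.11). TEAD4 was lowest in H1975, at 19.6 TPM, and HCC2935 and HCC827 did not differ in it (edgeR adjusted p = 0.233). For TEAD1, only HCC2935, at 53.0 TPM, stood above its neighbour (edgeR adjusted p = 0.000417).

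**Figure D1:**
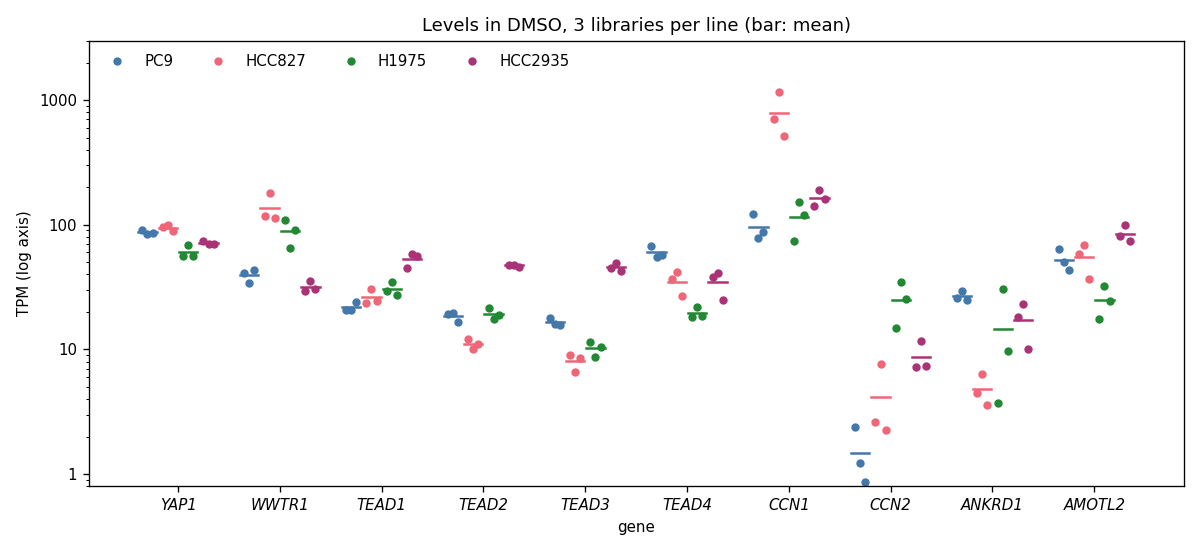
TPM of the 10 genes in the 3 DMSO libraries of each line, on a log axis, with 1 point per library. CCN1 is highest in HCC827 (mean 789 TPM) and CCN2 in H1975 (mean 25.0 TPM), whereas YAP1 spans only 60.4 to 94.9 TPM between lines.

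In all, 6 comparisons were made within each line, each on the 6 libraries of its 2 arms, and a gene was called at an edgeR adjusted p under 0.05 over all genes tested. In such bulk samples, fewer cells of a kind and less RNA per cell cannot be told apart. After acute osimertinib, 7, 3, 6 and 5 of the 10 genes were called in PC9, HCC827, H1975 and HCC2935, 21 of 40 gene and line pairs in all, 12 higher and 9 lower. Of all genes, 68.5%, 42.3%, 44.9% and 47.1% were called, so the number called was near the background. In persisters against DMSO, 6, 4, 8 and 9 were called, 27 of 40, with 22 higher and 5 lower, beside 71.3%, 36.7%, 45.7% and 52.5% of all genes. The shares called were thus near the background in PC9 and HCC827 and above it in H1975 and HCC2935. Persisters against acute osimertinib gave 8, 3, 1 and 8 calls (15 higher and 5 lower) against 39.8%, 29.5%, 26.2% and 42.4% of all genes. Long washout against DMSO gave 5, 5, 8 and 6 calls (20 higher and 4 lower) against 30.6%, 39.7%, 55% and 39.9%. Medians over the 10 genes lay at 0.43, 0.42, 0.52 and 0.39 (log2) in persisters against DMSO, where the medians of all genes were 0.02, 0.02, 0.01 and -0.0013. The arms of a line share libraries, so these comparisons are not independent of one another.

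**Figure D2:**
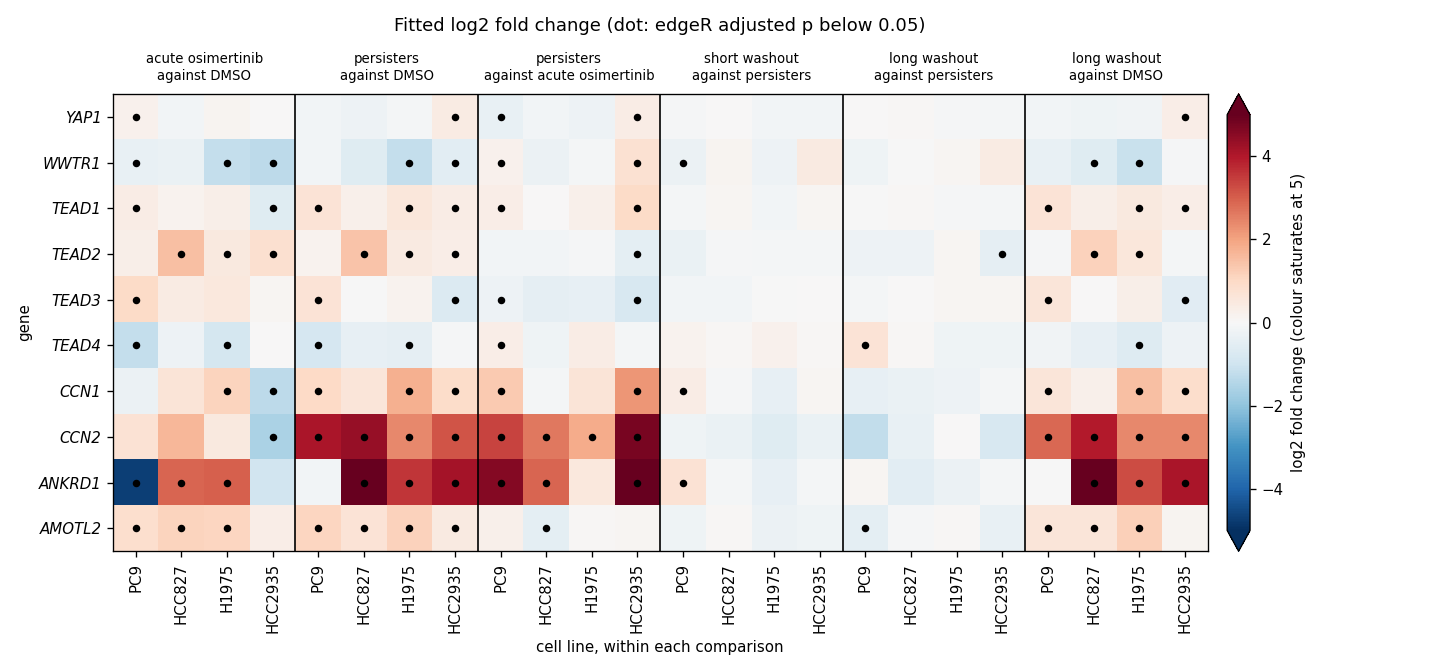
Log2 fold change of each of the 10 genes (edgeR, with filled marks for calls at an adjusted p under 0.05) in the 6 comparisons and 4 lines. CCN2 is positive in persisters against DMSO in all lines, from 2.39 to 4.37, and YAP1 stays between -0.25 and 0.39 there.

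YAP1 RNA moved little. Across the arms of a line its highest mean was at most 1.34 times its lowest. In PC9 it read 249, 229 and 234 CPM under DMSO, 272, 286 and 282 after 24 h of osimertinib and 217, 211 and 219 in persisters, so that on CPM acute osimertinib lay above DMSO and persisters below both. On TPM the order against DMSO turned, with 93.6 to 98.4 in persisters, 84.0 to 91.1 under DMSO and 100.1 to 105 in acute cells. The log2 change after acute osimertinib, with its standard error (SE), was 0.23 (SE 0.06, edgeR adjusted p = 0.00773), and persisters stood at -0.36 (SE 0.05, edgeR adjusted p = 0.0011) against acute cells but were not called against DMSO (-0.13). The second call did not hold with limma on log2 TPM (adjusted p = 0.189, over all alternatives 1.6e-08 to 0.189). HCC2935 went the other way, with 153, 142 and 135 CPM under DMSO, 157, 132 and 147 after 24 h of osimertinib, 200.1, 180.3 and 189 in persisters and 174, 181 and 174 after long washout. Persisters did not overlap the DMSO or acute libraries. The log2 change of HCC2935 persisters was 0.39 (SE 0.08, edgeR adjusted p = 0.00338) against DMSO and 0.38 (SE 0.10, edgeR adjusted p = 0.0113) against acute cells, and that of long washout against DMSO 0.32 (SE 0.09, edgeR adjusted p = 0.0175). The call of HCC2935 persisters against acute cells did not hold without acute replicate 2 (edgeR adjusted p 0.0533), and over all alternatives its p ran from 0.00173 to 0.0533. That of long washout against DMSO did not hold without DMSO replicate 2 or 3, each left out alone (edgeR adjusted p 0.0572 to 0.0734), and over all alternatives its p ran from 0.00411 to 0.0734. In edgeR no comparison called YAP1 in HCC827 or H1975, where its log2 changes ran from -0.27 to 0.12. DESeq2 called H1975 persisters lower than acute cells (adjusted p = 0.0352), and with all 15 libraries of a line in 1 fit edgeR called this difference (adjusted p = 0.012) and HCC827 persisters lower than DMSO (adjusted p = 0.0195). Over all alternatives these p ran from 0.012 to 0.151 and from 0.0195 to 0.204.

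WWTR1 was lower after acute osimertinib in 3 lines. In HCC2935 it read 48.4, 58.1 and 47.5 CPM under DMSO, 18.7, 24.0 and 20.3 after 24 h of osimertinib and 39.7, 30.6 and 36.4 in persisters. H1975 read 202, 118 and 169.98 CPM under DMSO, 71.6, 72.9 and 79.0 after 24 h of osimertinib and 75.5, 75.9 and 62.4 in persisters, without overlap between DMSO and either drug arm. WWTR1 fell by 1.31 (log2, edgeR adjusted p = 4.51e-05) in acute HCC2935, by 1.17 (edgeR adjusted p = 0.00199) in H1975 and by 0.36 (edgeR adjusted p = 0.0134) in PC9. PC9 held 90.4, 74.97 and 95.0 CPM under DMSO, 73.4, 68.2 and 62.1 after 24 h of osimertinib and 77.5, 78.2 and 79.6 in persisters, a smaller difference with no overlap between DMSO and acute cells. Persisters were also low in H1975, at a log2 change of -1.21 (SE 0.19, edgeR adjusted p = 0.00124), and lay between DMSO and acute cells in HCC2935, at -0.54 (SE 0.13, edgeR adjusted p = 0.00624) against DMSO and 0.75 (SE 0.15, edgeR adjusted p = 0.00221) against acute cells. PC9 persisters were 0.23 (SE 0.08, edgeR adjusted p = 0.043) above acute cells. That PC9 call did not hold without acute replicate 2 or 3 or persisters replicate 1, 2 or 3, each left out alone (edgeR adjusted p 0.074 to 0.12), nor with no count filter, the replicate block or all 15 libraries of the line in 1 fit, and over all alternatives its p ran from 0.00154 to 0.12. HCC827 held 227, 354 and 226 CPM under DMSO, 183, 196 and 261 after 24 h of osimertinib, 135, 169.9 and 213 in persisters and 167, 201 and 148 after long washout, with DMSO replicate 2 above all others. There the main edgeR test called only long washout against DMSO, at -0.62 (SE 0.18, edgeR adjusted p = 0.0221). Persisters stood at -0.61, which passed in DESeq2 (adjusted p = 0.0199) but not in the main edgeR test (0.053). With the replicate block (adjusted p = 0.0469) or all 15 libraries of the line (0.0371) edgeR called them lower. It did so too without DMSO replicate 3 (adjusted p = 0.04996) or persisters replicate 3 (0.0309). The HCC827 long washout call did not hold without DMSO replicate 2 or long washout replicate 1 or 3, each left out alone (edgeR adjusted p 0.064 to 0.0829), and over all alternatives its p ran from 0.00487 to 0.0829.

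In H1975 the YAP1 to WWTR1 ratio of TPM was 0.726 ± 0.282 under DMSO, 1.66 ± 0.0614 in acute cells and 1.47 ± 0.108 in persisters (mean ± SD, n = 3). In HCC2935 it was 2.27 ± 0.292, 5.69 ± 1.18 and 4.33 ± 0.372, and 3.02 ± 0.522 after long washout. PC9 had ratios of 2.22 ± 0.237, 3.34 ± 0.337 and 2.22 ± 0.0408, and HCC827 of 0.717 ± 0.140, 0.817 ± 0.135 and 0.916 ± 0.200. These ratios were described without a test.

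**Figure D3:**
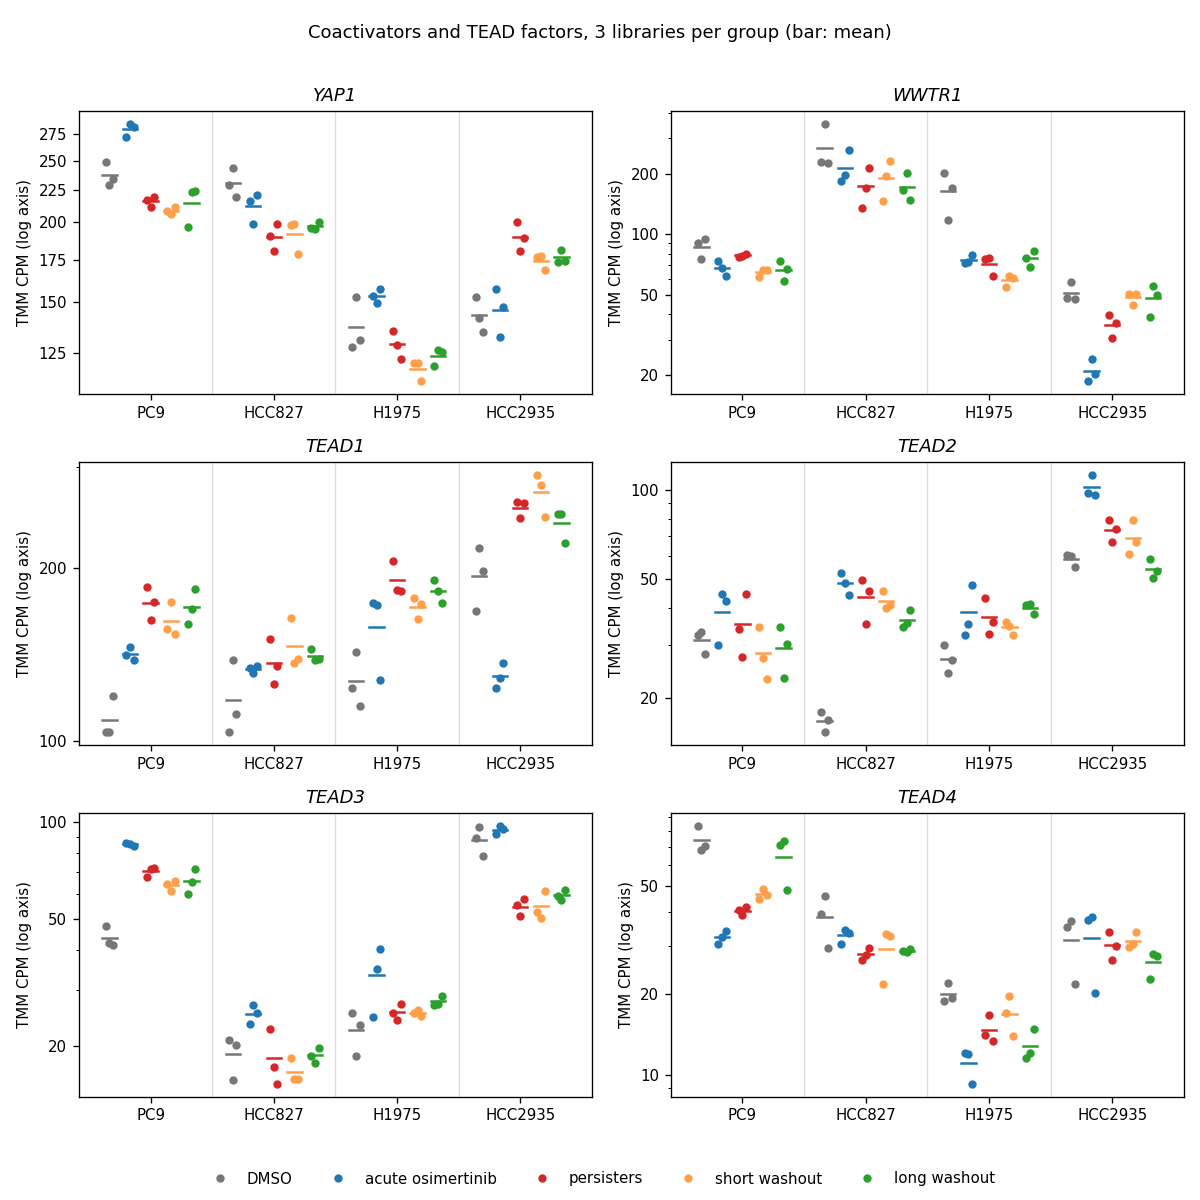
TMM-scaled CPM of YAP1, WWTR1 and TEAD1 to TEAD4 by arm and line on a log axis, with 1 point per library. WWTR1 falls after acute osimertinib in PC9, H1975 and HCC2935, TEAD2 is higher in HCC827 under drug (DMSO 17.96, 15.3 and 16.8 CPM, acute 52.4, 48.7 and 44.4 CPM), and TEAD4 is lower in PC9 under drug.

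Among the DNA-binding partners, TEAD1 was higher in persisters than under DMSO in 3 lines. In PC9 it read 103, 104 and 119 CPM under DMSO, 141, 146 and 138 after 24 h of osimertinib and 185, 162 and 174 in persisters, and the 3 arms did not overlap. The log2 change of persisters against DMSO was 0.68 (SE 0.08, edgeR adjusted p = 4.49e-05) in PC9, 0.58 (SE 0.11, edgeR adjusted p = 0.00312) in H1975 and 0.38 (SE 0.10, edgeR adjusted p = 0.0129) in HCC2935. HCC827 was not called (0.25, adjusted p = 0.186 in edgeR). HCC2935 was lower in acute cells, with 168, 216 and 198 CPM under DMSO, 124, 129 and 136 after 24 h of osimertinib and 261, 244 and 259.8 in persisters and an acute change of -0.60 (SE 0.11, edgeR adjusted p = 0.00143), so persisters exceeded acute cells by 0.97. In PC9 the acute change was a rise of 0.37 (edgeR adjusted p = 0.0022), with a further 0.31 (edgeR adjusted p = 0.00719) in persisters. Long washout against DMSO gave log2 changes of 0.68 in PC9, 0.50 in H1975 and 0.32 in HCC2935, all called. The HCC2935 call did not hold without DMSO replicate 1 or 3 or long washout replicate 1, 2 or 3, each left out alone (edgeR adjusted p 0.0567 to 0.202), nor with library size scaling, no count filter or the replicate block, and over all alternatives its p ran from 0.0163 to 0.202.

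TEAD2 had its largest change in HCC827, where it read 17.96, 15.3 and 16.8 CPM under DMSO, 52.4, 48.7 and 44.4 after 24 h of osimertinib, 49.8, 35.4 and 45.8 in persisters and 34.7, 35.6 and 39.4 after long washout, and the libraries of these 3 drug-exposed arms lay above all DMSO libraries. Its log2 change there was 1.52 (SE 0.13, edgeR adjusted p = 3.35e-05) in acute cells, 1.42 (SE 0.17, edgeR adjusted p = 0.000425) in persisters and 1.15 (SE 0.14, edgeR adjusted p = 0.000272) after long washout. In HCC2935, with 60.2, 59.9 and 54.9 CPM under DMSO, 97.9, 112 and 96.2 after 24 h of osimertinib, 79.4, 67.0 and 73.9 in persisters and 58.7, 50.6 and 53.4 after long washout, the acute rise of 0.79 (SE 0.09, edgeR adjusted p = 0.000117) was followed by 0.32 in persisters. Persisters stood at -0.48 (SE 0.11, edgeR adjusted p = 0.00442) against acute cells, and long washout at -0.44 (SE 0.11, edgeR adjusted p = 0.0496) against persisters. The call of HCC2935 persisters against DMSO did not hold without persisters replicate 1 or 3, each left out alone (edgeR adjusted p 0.0529 to 0.0641), and over all alternatives its p ran from 0.00156 to 0.0641. The call of long washout against persisters did not hold without long washout replicate 2 or 3 or persisters replicate 1, 2 or 3, each left out alone (edgeR adjusted p 0.0932 to 0.17), nor with the replicate block, and over all alternatives its p ran from 0.00948 to 0.17. H1975, at 30.1, 24.2 and 26.8 CPM under DMSO, 32.5, 35.5 and 48.0 after 24 h of osimertinib, 43.4, 32.7 and 35.9 in persisters and 41.0, 41.2 and 38.4 after long washout, was called in acute cells (0.47), persisters (0.46) and long washout (0.55) against DMSO. The H1975 acute call did not hold without DMSO replicate 1, 2 or 3 or acute replicate 2 or 3, each left out alone (edgeR adjusted p 0.0677 to 0.142), nor with no count filter, limma on log2 TPM or the replicate block, and over all alternatives its p ran from 0.0066 to 0.142. The persister call did not hold without DMSO replicate 2 or 3 or persisters replicate 1 or 3, each left out alone (edgeR adjusted p 0.0537 to 0.112), and over all alternatives its p ran from 0.0147 to 0.112. PC9 was not called by edgeR in any of the 6 comparisons, with log2 changes from -0.33 to 0.31, whereas limma on log2 TPM called its persisters higher than DMSO (0.42, adjusted p = 0.0445, over all alternatives to 0.893) and edgeR its acute cells without acute replicate 1 (0.45, adjusted p = 0.00629, over all alternatives to 0.277).

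TEAD3 went in opposite directions in PC9 and HCC2935 persisters. PC9 read 47.6, 42.2 and 41.3 CPM under DMSO, 86.3, 85.4 and 84.6 after 24 h of osimertinib and 67.7, 71.5 and 72.3 in persisters. HCC2935 read 89.3, 96.6 and 78.5 CPM under DMSO, 92.3, 97.4 and 95.3 after 24 h of osimertinib and 55.1, 51.2 and 57.6 in persisters, with no overlap between persisters and DMSO in either line. The log2 change was 0.69 (SE 0.08, edgeR adjusted p = 2.43e-05) in PC9 and -0.70 (SE 0.10, edgeR adjusted p = 0.000403) in HCC2935, and the lines differed in this effect (interaction test, edgeR adjusted p = 4.15e-05). TEAD3 was higher in acute PC9 cells by 0.96 (SE 0.08, edgeR adjusted p = 6.08e-06), against no called change in HCC2935 (0.09). Persisters were below acute cells in both, at -0.80 (SE 0.09, edgeR adjusted p = 0.000103) in HCC2935 and -0.26 (SE 0.06, edgeR adjusted p = 0.00994) in PC9. The PC9 call did not hold on the TPM scale (0.0029 by limma, adjusted p = 0.977) or with library size scaling (-0.12, edgeR adjusted p = 0.148), and over all alternatives its p ran from 0.000726 to 0.977. Long washout kept both signs against DMSO, 0.61 in PC9 and -0.55 in HCC2935, both called. HCC827 and H1975 were not called by edgeR in the 6 comparisons. DESeq2 called TEAD3 higher in their acute cells, at 0.40 (adjusted p = 0.0483, over all alternatives 0.0354 to 0.185) in HCC827 and 0.53 (adjusted p = 0.0314, over all alternatives 0.0057 to 0.182) in H1975. Without 1 library edgeR called persisters lower than acute cells in HCC827 (-0.64, adjusted p = 0.00867, over all alternatives to 0.199, without persisters replicate 1) and in H1975 (-0.58, adjusted p = 0.0132, over all alternatives to 0.37, without acute replicate 1).

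TEAD4, the most abundant TEAD RNA of PC9, fell there with the drug, from 83.4, 67.8 and 70.4 CPM under DMSO to 30.5, 32.5 and 34.3 after 24 h and 41.0, 39.0 and 41.8 in persisters, without overlap. The change was -1.19 (SE 0.10, edgeR adjusted p = 6.81e-06) in acute cells and -0.86 (SE 0.09, edgeR adjusted p = 1.41e-05) in persisters, which were above acute cells by 0.34 (edgeR adjusted p = 0.00841, but 0.0583 with all 15 libraries of the line, and over all alternatives 0.00053 to 0.0583). After long washout PC9 read 71.3, 73.5 and 48.5 CPM, with replicate 3 near the persisters, a rise of 0.67 (SE 0.16, edgeR adjusted p = 0.034) over persisters. This rise did not hold without long washout replicate 1 or 2 or persisters replicate 1, 2 or 3, each left out alone (edgeR adjusted p 0.0913 to 0.128), and over all alternatives its p ran from 0.000194 to 0.128. In H1975, TEAD4 read 18.9, 22.02 and 19.3 CPM under DMSO, 12.1, 12.02 and 9.31 after 24 h of osimertinib, 14.0, 16.6 and 13.4 in persisters and 11.6, 12.1 and 14.9 after long washout, and it was lower in acute cells (-0.89), persisters (-0.46) and long washout (-0.66), all called. The H1975 persister call did not hold without DMSO replicate 2 or 3 or persisters replicate 1 or 3, each left out alone (edgeR adjusted p 0.0564 to 0.0887), and over all alternatives its p ran from 0.0105 to 0.0887. HCC827 and HCC2935 were not called in the main edgeR test, at -0.42 and -0.07 in persisters. Without HCC827 DMSO replicate 3 edgeR called HCC827 lower in acute cells (-0.40, adjusted p = 0.0337), persisters (-0.58, 0.0244) and long washout (-0.55, 0.0167). Without HCC2935 DMSO replicate 3 it called HCC2935 lower after long washout (-0.46, adjusted p = 0.0335). As a share of summed TEAD TPM, TEAD4 of PC9 was 51.2 ± 2.35%, 23.9 ± 0.833%, 28.6 ± 0.905% and 40.4 ± 6.89% in DMSO, acute, persister and long washout cells, and TEAD2 of HCC827 13.9 ± 2.27%, 31.4 ± 2.35%, 31.1 ± 2.74% and 27.0 ± 1.31%.

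CCN2, also called CTGF, encodes a secreted matricellular protein and is a standard readout of YAP and TAZ. It was higher in persisters than under DMSO in all 4 lines. PC9 read 4.801, 2.50 and 1.74 CPM under DMSO, 2.72, 2.72 and 9.63 after 24 h of osimertinib and 41.3, 29.8 and 81.1 in persisters. HCC827 read 4.67, 13.8 and 4.17 CPM under DMSO, 9.29, 9.17 and 54.1 after 24 h of osimertinib and 168, 174 and 114 in persisters. In both lines the persister libraries were the highest, and acute replicate 3 stood above the other acute libraries. H1975 held 25.3, 57.4 and 43.6 CPM under DMSO, 74.5, 74.1 and 32.0 after 24 h of osimertinib and 251, 253 and 162 in persisters. HCC2935 read 11.01, 17.6 and 10.5 CPM under DMSO, 4.35, 5.96 and 2.77 after 24 h of osimertinib and 122.6, 155 and 75.7 in persisters. In each line, all 3 persister libraries lay above all 6 libraries of the other 2 arms. Against DMSO the log2 change was 4.09 (SE 0.43, edgeR adjusted p = 1.61e-05) in PC9, 4.37 (SE 0.44, edgeR adjusted p = 0.000203) in HCC827, 2.39 (SE 0.29, edgeR adjusted p = 0.000399) in H1975 and 3.16 (SE 0.28, edgeR adjusted p = 3.35e-05) in HCC2935. As a ratio of mean CPM these were 16.8, 20.1, 5.28 and 9.01 times the DMSO level. Against acute cells persisters were higher by 3.36 in PC9, 2.66 in HCC827, 1.87 in H1975 and 4.76 in HCC2935, all called. Acute osimertinib alone was called in the main edgeR test only in HCC2935, where CCN2 fell by 1.60 (SE 0.30, edgeR adjusted p = 0.00187), whereas the other lines gave 0.74, 1.67 and 0.48 with overlapping libraries. In acute HCC827 cells edgeR called CCN2 higher with all 15 libraries of the line (1.68, adjusted p = 0.0378). It did so too without DMSO replicate 2 (2.42, edgeR adjusted p = 0.0363). Single libraries set the size, not the direction. Without HCC827 DMSO replicate 2 the HCC827 persister change was 5.12 (edgeR adjusted p = 0.000211), and without acute replicate 3, which read far above its group, the changes against acute cells were 4.04 (edgeR adjusted p = 0.00117) in HCC827 and 4.24 (edgeR adjusted p = 0.000532) in PC9. The HCC827 call against acute cells did not hold without acute replicate 1 or 2, each left out alone (edgeR adjusted p 0.0561 to 0.0616), and over all alternatives its p ran from 0.00117 to 0.0616.

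ANKRD1, a nuclear cofactor first described in heart muscle, did not show 1 pattern in the lines. HCC827 read 6.59, 9.52 and 5.49 CPM under DMSO, 51.9, 57.7 and 54.4 after 24 h of osimertinib and 358, 377 and 485 in persisters. HCC2935 read 23.0, 29.3 and 11.96 CPM under DMSO, 12.4, 15.3 and 5.77 after 24 h of osimertinib and 424, 409 and 308 in persisters. Persisters of these lines lay above all DMSO and acute libraries. The log2 change against DMSO was 5.85 (SE 0.24, edgeR adjusted p = 1.42e-05) in HCC827 and 4.14 (SE 0.29, edgeR adjusted p = 8.89e-06) in HCC2935, 56.5 and 17.8 times the mean DMSO CPM. In HCC827 acute cells, a separate culture from the persisters, stood 2.91 (SE 0.19, edgeR adjusted p = 8.83e-06) above DMSO, and persisters 2.90 above acute cells. In HCC2935 acute cells stood at -0.95 against DMSO, not called, and persisters 5.09 above them. In HCC2935, same-numbered DMSO and acute libraries deviated together weakly (r = 0.19, 0.13 and 0.36), so a pairing was inferred from these data. With the replicate as a block ANKRD1 was called lower there, at -0.97 (edgeR adjusted p = 0.000263). PC9 showed another pattern, with 43.2, 49.4 and 42.0 CPM under DMSO, 1.37, 1.67 and 2.09 after 24 h of osimertinib, 38.9, 39.1 and 42.9 in persisters and 63.2, 63.3 and 73.1 after short washout. After acute osimertinib it was lower by 4.72 (SE 0.16, edgeR adjusted p = 1.67e-07), to 1.71 CPM on average from 44.9. Persisters overlapped DMSO (-0.15, edgeR adjusted p = 0.152, with a mean of 28.97 TPM against 26.7 under DMSO), being 4.57 above acute cells (edgeR adjusted p = 2.04e-06). H1975 varied between replicates, with 5.19, 42.2 and 13.8 CPM under DMSO, 293, 159.5 and 37.3 after 24 h of osimertinib and 289, 218 and 216 in persisters. DMSO replicate 2 overlapped acute replicate 3. The H1975 changes against DMSO were 2.97 (SE 0.91, edgeR adjusted p = 0.0314) in acute cells and 3.56 (SE 0.62, edgeR adjusted p = 0.00197) in persisters. Without DMSO replicate 2 they were 4.05 (edgeR adjusted p = 0.0139) and 4.65 (edgeR adjusted p = 0.000132), and without acute replicate 1 the acute change was 2.22 (edgeR adjusted p = 0.079). The H1975 acute call did not hold without DMSO replicate 1 or 3 or acute replicate 1 or 2, each left out alone (edgeR adjusted p 0.0661 to 0.11), nor with the replicate block, and over all alternatives its p ran from 0.00168 to 0.11.

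CCN1, also called CYR61, is a secreted protein related to CCN2 and a target long used for YAP. It was higher in persisters of PC9, H1975 and HCC2935. PC9 read 225, 144 and 159 CPM under DMSO, 101, 122.9 and 205 after 24 h of osimertinib and 357, 312 and 380.5 in persisters. H1975 read 115, 226 and 186 CPM under DMSO, 473, 495 and 192 after 24 h of osimertinib and 591, 610.1 and 613 in persisters. HCC2935 read 194, 260.03 and 207 CPM under DMSO, 79.9, 116 and 76.3 after 24 h of osimertinib and 487, 411 and 361 in persisters. Persisters did not overlap DMSO in these lines. Against DMSO the log2 change was 1.00 (SE 0.14, edgeR adjusted p = 0.000156) in PC9, 1.78 (SE 0.21, edgeR adjusted p = 0.000387) in H1975 and 0.92 (SE 0.14, edgeR adjusted p = 0.000555) in HCC2935. HCC827, with the highest start, read 1129.95, 1895 and 846 CPM under DMSO, 1839, 1685 and 2504 after 24 h of osimertinib and 2021, 1813 and 1847 in persisters with overlap, and was not called by edgeR (0.59, adjusted p = 0.0973) but by DESeq2 (adjusted p = 0.0445). CCN1 fell in acute HCC2935 cells by 1.29 (SE 0.17, edgeR adjusted p = 0.000225) and rose in acute H1975 cells by 1.10 (SE 0.38, edgeR adjusted p = 0.0485), with overlap in H1975, where acute replicate 3 stood with the DMSO libraries. The H1975 call did not hold without DMSO replicate 1 or 3 or acute replicate 1 or 2, each left out alone (edgeR adjusted p 0.113 to 0.154), nor with no count filter, limma on log2 TPM or the replicate block, and over all alternatives its p ran from 0.00506 to 0.154. Persisters exceeded acute cells by 2.20 in HCC2935 and 1.31 in PC9 (edgeR adjusted p = 1.07e-05 and 0.00225).

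AMOTL2 was higher in persisters of all 4 lines, and in 3 of them also in acute cells. Its persister changes were smaller in log2 than those of CCN2 in each line. PC9 read 236, 185 and 159 CPM under DMSO, 292, 336 and 417 after 24 h of osimertinib and 371, 372 and 483 in persisters. HCC827 read 190.03, 228 and 124 CPM under DMSO, 360.2, 360.1 and 459 after 24 h of osimertinib and 318, 270.2 and 258 in persisters, and in both lines all acute and persister libraries lay above all DMSO libraries. H1975 read 54.5, 98.3 and 76.99 CPM under DMSO, 161, 198 and 133 after 24 h of osimertinib and 173, 168 and 177 in persisters, again without overlap. HCC2935 read 224, 274 and 195 CPM under DMSO, 290.3, 339 and 249 after 24 h of osimertinib and 291, 351 and 303 in persisters, where acute cells overlapped DMSO. The acute log2 change was 0.84 (SE 0.16, edgeR adjusted p = 0.00125) in PC9, 1.11 (SE 0.20, edgeR adjusted p = 0.00198) in HCC827 and 1.06 (SE 0.23, edgeR adjusted p = 0.0076) in H1975, against 0.33, not called, in HCC2935, where the replicate block gave 0.33 (edgeR adjusted p = 0.00261). The persister changes were 1.08 in PC9, 0.68 in HCC827, 1.16 in H1975 and 0.44 in HCC2935, all called. Between persisters and acute cells the main edgeR test called only HCC827, at -0.48 (SE 0.13, edgeR adjusted p = 0.0268). PC9 persisters were called higher than acute cells by limma on log2 TPM (0.52, adjusted p = 0.021). The replicate block also called them higher (0.25, edgeR adjusted p = 0.023), as did edgeR without acute replicate 3 (0.40, adjusted p = 0.0432). The HCC827 persister call did not hold without DMSO replicate 1 or 3 or persisters replicate 1 or 2, each left out alone (edgeR adjusted p 0.056 to 0.0758), and over all alternatives its p ran from 0.00571 to 0.0758. The HCC2935 persister call did not hold without DMSO replicate 1 or persisters replicate 2, each left out alone (edgeR adjusted p 0.0597 to 0.0643), and over all alternatives its p ran from 0.00311 to 0.0643. The HCC827 call against acute cells did not hold without acute replicate 1, 2 or 3 or persisters replicate 2 or 3, each left out alone (edgeR adjusted p 0.0521 to 0.0936), nor with the replicate block or all 15 libraries of the line in 1 fit, and over all alternatives its p ran from 0.00366 to 0.0936.

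**Figure D4:**
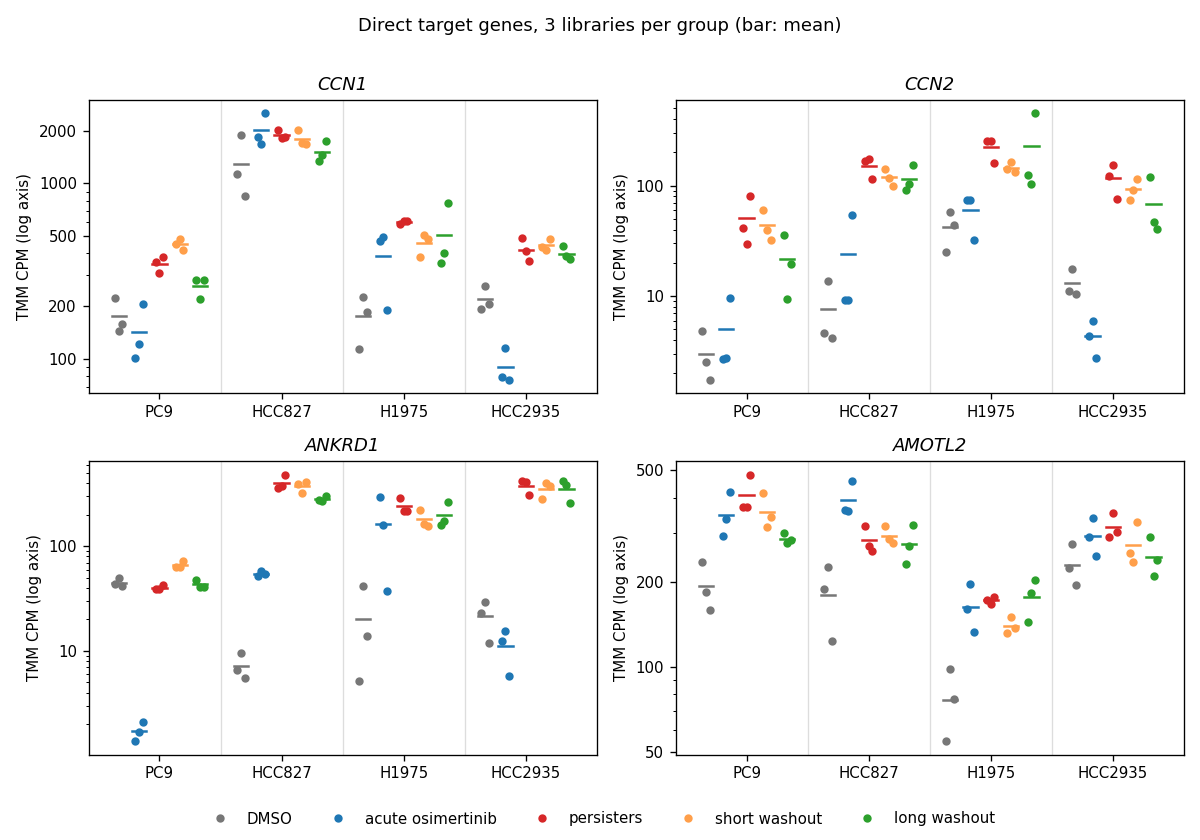
TMM-scaled CPM of CCN1, CCN2, ANKRD1 and AMOTL2 by arm and line on a log axis, with 1 point per library. CCN2 sits between 29.8 and 253 CPM in persisters, above the DMSO libraries of the same line in each case, and ANKRD1 of PC9 falls to 1.37, 1.67 and 2.09 CPM after acute osimertinib.

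Whether the lines responded alike was tested with the interaction of line and arm over 24 libraries. For the acute effect 9 of the 10 genes differed between lines, beside 40.5% of all genes, and for the persister effect 8, beside 61.6%. ANKRD1 had the smallest values (edgeR adjusted p = 3.81e-06 acute and 1.52e-06 persister), its acute changes being -4.72 in PC9, 2.91 in HCC827, 2.97 in H1975 and -0.95 in HCC2935. AMOTL2 passed in neither (edgeR adjusted p = 0.166 and 0.0985), and TEAD1 not in persisters (edgeR adjusted p = 0.0899). A missed threshold does not show that lines were alike. For CCN2, which was called higher in persisters of all 4 lines, the sizes differed (edgeR adjusted p = 0.0307), from 2.39 in H1975, where DMSO was highest, to 4.37 in HCC827.

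Removing the drug for 24 h called 3 of 40 pairs, all in PC9, where 22.2% of all genes were called. ANKRD1 of PC9 rose from 38.9, 39.1 and 42.9 CPM to 63.2, 63.3 and 73.1 CPM, a change of 0.72 (SE 0.08, edgeR adjusted p = 0.00124) that took it above its DMSO libraries, whereas CCN1 rose by 0.37 (SE 0.08, edgeR adjusted p = 0.0135) and WWTR1 fell by 0.28 (SE 0.06, edgeR adjusted p = 0.0116). With all 15 libraries of PC9 in 1 fit, WWTR1 was not called (edgeR adjusted p = 0.115, over all alternatives 0.000585 to 0.115), nor was CCN1 (edgeR adjusted p = 0.298, over all alternatives 0.000255 to 0.298). In HCC827 0 of the 10 genes and 0% of all genes were called by edgeR (197 of all genes and 0 of the 10 at an unadjusted p under 0.05, and 0 by DESeq2 and by limma on TPM). Same-numbered libraries deviated together there (r = 0.69, 0.40 and 0.52), and with the replicate as a block 0 of the 10 and 2 genes were called. In H1975 edgeR called 0 of the 10 and 0% of all genes (5 of the 10 and 1950 genes at an unadjusted p under 0.05). DESeq2 called 1 of the 10 and 399 genes there, and limma 0 of both. Same-numbered H1975 libraries also deviated together (r = 0.25, 0.60 and 0.54). With the replicate as a block 4 of the 10 and 1697 genes were called, all 4 lower. These were AMOTL2 at -0.30 (edgeR adjusted p = 0.0182), ANKRD1 at -0.41 (edgeR adjusted p = 0.00222), CCN1 at -0.41 (edgeR adjusted p = 0.00619) and CCN2 at -0.58 (edgeR adjusted p = 0.00296). The pairing was inferred from these data and not read from the labels, so the block calls depend on it. HCC2935 had 0 of the 10 called by edgeR beside 3.52% of all genes, with 1 of the 10 at an unadjusted p under 0.05, 1 by DESeq2 and 0 by limma. The lines did not pass a test of difference in this effect for any of the 10, where 0.0248% of all genes did (3 of the 10 at an unadjusted p under 0.05, 2 called by DESeq2, 0 by limma and 2 with the replicate block).

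Long washout against persisters called 3 of 40 pairs. In PC9, where 17.3% of all genes were called, TEAD4 rose and AMOTL2 fell by 0.50 (SE 0.12, edgeR adjusted p = 0.0345), from 371, 372 and 483 CPM to 300.2, 275 and 283 CPM, and in HCC2935, where 5.16% were, TEAD2 fell. The AMOTL2 call did not hold without long washout replicate 1 or 2 or persisters replicate 1, 2 or 3, each left out alone (edgeR adjusted p 0.0888 to 0.121), and over all alternatives its p ran from 0.00204 to 0.121. HCC827 and H1975 had 0 of the 10 called, beside 0% and 0.0136% of all genes. At an unadjusted p under 0.05 these were 2 and 0 of the 10 and 434 and 660 genes, and DESeq2 called 0 and 0 of the 10 and 7 and 72 genes, and limma 0 genes in each. Without a call, mean CCN2 went from 50.7 to 21.6 CPM in PC9 (-1.22, edgeR adjusted p = 0.119, over all alternatives 0.0562 to 0.368). In HCC2935 it went from 118 to 68.4 CPM (-0.79, edgeR adjusted p = 0.264), and this was called without long washout replicate 1 (-1.44, edgeR adjusted p = 0.0132), where over all alternatives the p ran from 0.0132 to 0.574. Mean ANKRD1 of HCC827 went from 407 to 282 CPM (-0.53, unadjusted p = 0.00355 by edgeR with 0 genes called in this line, adjusted p over all alternatives 0.164 to 1.00), and its libraries did not overlap. Against DMSO, CCN2 was still higher after long washout in all lines, with 36.0, 9.34 and 19.5 CPM in PC9, 91.8, 103 and 153 CPM in HCC827, 125, 103 and 452 CPM in H1975 and 119, 46.5 and 40.2 CPM in HCC2935. All of these exceeded the DMSO libraries of their line, by 2.87 in PC9, 3.97 in HCC827, 2.41 in H1975 and 2.41 in HCC2935, all called. A single library moved the size in each line, lowering the change in HCC827 and raising it in the others. The change was 1.42 (edgeR adjusted p = 0.00868) in H1975 without long washout replicate 3, 1.74 (edgeR adjusted p = 0.000586) in HCC2935 without replicate 1, 2.28 (edgeR adjusted p = 0.0276) in PC9 without replicate 1 and 4.73 (edgeR adjusted p = 4.85e-05) in HCC827 without DMSO replicate 2.

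ANKRD1 after long washout stood at 5.31 (SE 0.19, edgeR adjusted p = 2.12e-06) against DMSO in HCC827, 3.28 in H1975 and 4.08 in HCC2935, all called, and at -0.03 in PC9, not called. Without H1975 DMSO replicate 2 the H1975 change was 4.37 (edgeR adjusted p = 6.42e-05). CCN1 was still higher in H1975 (1.52), HCC2935 (0.88) and PC9 (0.60), with overlap in PC9 between 281, 221 and 282 CPM and the DMSO libraries. The PC9 call did not hold without DMSO replicate 2 or 3 or long washout replicate 1 or 3, each left out alone (edgeR adjusted p 0.0508 to 0.14), and over all alternatives its p ran from 0.00804 to 0.14. AMOTL2 was higher in H1975 (1.19), HCC827 (0.62) and PC9 (0.59) but not called in HCC2935 (0.12). The HCC827 call did not hold without DMSO replicate 1 or 3 or long washout replicate 2 or 3, each left out alone (edgeR adjusted p 0.0693 to 0.108), nor with the replicate block, and over all alternatives its p ran from 0.00673 to 0.108. The PC9 call of AMOTL2 did not hold without DMSO replicate 2 or 3 or long washout replicate 1, each left out alone (edgeR adjusted p 0.0666 to 0.0729), and over all alternatives its p ran from 0.00125 to 0.0729. HCC827 and H1975 still had low MKI67 in this arm, as given above.

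Other published targets of YAP, TAZ and TEAD were followed as a list of 18 genes, 17 of which are in the files (FOXF2 was not analysed here). Persisters against DMSO gave 10 higher and 4 lower in PC9, 9 higher and 2 lower in HCC827, 8 higher and 2 lower in H1975 and 9 higher and 3 lower in HCC2935 of the 17, with medians of 1.03, 1.02, 0.53 and 0.66 (log2), where the medians of all genes were near 0, as given above. Of all genes 71.3%, 36.7%, 45.7% and 52.5% were called in these lines in either direction, so the numbers called in PC9 and H1975 were not far above the background. CCDC80, TGFB2, CRIM1 and LATS2 rose in all 4 lines. CCDC80 encodes a matrix protein, and its changes were 3.74 in PC9, 2.83 in HCC827, 2.54 in H1975 and 1.45 in HCC2935. TGFB2, a growth factor, changed by 0.54 in PC9, 2.64 in HCC827, 2.09 in H1975 and 2.36 in HCC2935, and CRIM1, a membrane protein that binds bone morphogenetic proteins, by 1.78 in PC9, 1.45 in HCC827, 1.20 in H1975 and 1.53 in HCC2935. LATS2 is itself a Hippo kinase that restrains YAP, a target that also stands in the list of upstream genes, and changed by 0.54 to 1.33. NT5E, which encodes the surface enzyme CD73, fell in all 4 lines, at -1.38 in PC9, -1.87 in HCC827, -4.20 in H1975 and -1.64 in HCC2935, so the list did not move 1 way. RBMS3 and IGFBP3 rose in 3 lines each. Acute osimertinib gave 7 higher and 4 lower in PC9, 7 higher and 3 lower in HCC827, 7 higher and 3 lower in H1975 and 3 higher and 7 lower in HCC2935, with medians of 0.30, 0.24, 0.48 and -0.17. Of all genes 68.5%, 42.3%, 44.9% and 47.1% were called there, so the number called in PC9 was not above the background. HCC2935, where CCN1 and CCN2 also fell, was the line with more of the list lower than higher. Persisters against acute cells gave 9 higher and 3 lower in PC9, 8 higher and 0 lower in HCC827, 4 higher and 2 lower in H1975 and 13 higher and 1 lower in HCC2935, beside 39.8%, 29.5%, 26.2% and 42.4% of all genes called. Long washout against DMSO gave 8 higher and 1 lower in PC9, 9 higher and 2 lower in HCC827, 9 higher and 2 lower in H1975 and 10 higher and 2 lower in HCC2935, beside 30.6%, 39.7%, 55% and 39.9%.

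**Figure D5:**
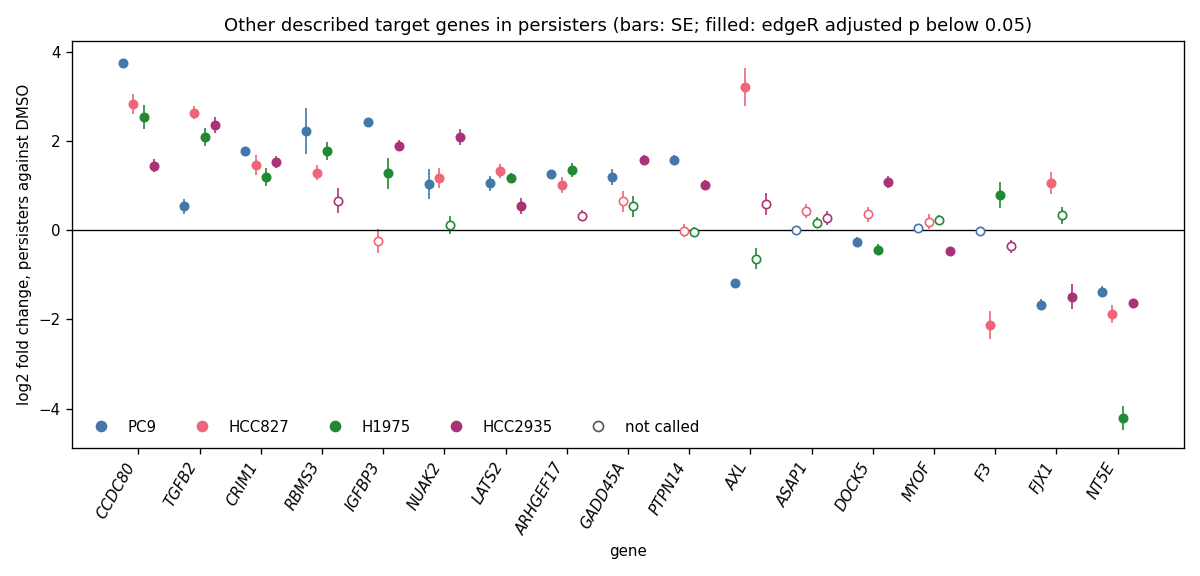
Log2 fold change of the 17 other YAP, TAZ and TEAD targets in persisters against DMSO, by line, with filled marks for edgeR calls. CCDC80, TGFB2 and CRIM1 are called higher in persisters of all 4 lines and NT5E lower.

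Upstream of YAP, 14 Hippo genes were followed. Acute osimertinib gave 4 higher and 10 lower in PC9, 2 higher and 3 lower in HCC827, 3 higher and 3 lower in H1975 and 1 higher and 8 lower in HCC2935, with medians of -0.47, -0.01, -0.02 and -0.38. Of all genes 68.5%, 42.3%, 44.9% and 47.1% were called, so HCC827 and H1975, with 5 and 6 of 14, were near or below the background. MOB1A, the LATS cofactor, fell in all 4 lines (-0.54 in PC9, -0.55 in HCC827, -0.42 in H1975 and -0.34 in HCC2935), and NF2, STK4 (the kinase MST1) and MAP4K4 fell in 3 each. LATS2 rose in 3 (0.78 in PC9, 0.82 in HCC827, 1.12 in H1975 and 0.18 in HCC2935, HCC2935 not called), as did the cadherin FAT4. In persisters the counts were 4 higher and 8 lower in PC9, 2 higher and 2 lower in HCC827, 6 higher and 3 lower in H1975 and 7 higher and 2 lower in HCC2935. Of all genes 71.3%, 36.7%, 45.7% and 52.5% were called there, so HCC827 lay below the background. FAT4 was higher in PC9, H1975 and HCC2935 persisters by 5.64, 2.48 and 4.39, from 8 to 20 counts in PC9 and 3 to 42 in HCC2935 DMSO libraries. WWC2 was higher in PC9, H1975 and HCC2935, and NF2 in persisters over acute cells in PC9, HCC827 and HCC2935 (0.38, 0.92 and 1.28).

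Of 8 cofactors of YAP and TEAD, 7 were tested in PC9, HCC827 and HCC2935 and 6 in H1975. In acute cells the counts were 7 higher and 0 lower in PC9, 5 higher and 0 lower in HCC827, 3 higher and 0 lower in H1975 and 2 higher and 0 lower in HCC2935, beside 68.5%, 42.3%, 44.9% and 47.1% of all genes called in either direction, which H1975 and HCC2935 did not clearly exceed. AMOT, a scaffold that holds YAP at junctions and is a relative of AMOTL2, rose in all 4 lines, by 2.18 in PC9, 1.83 in HCC827 and 0.47 in HCC2935. In H1975 it started from 1 to 5 counts per DMSO library, so no fold is given. VGLL4, a TEAD-binding repressor, rose in acute cells of 3 lines (0.86 in PC9, 0.65 in HCC827, 0.59 in H1975 and 0.32 in HCC2935) and was lower again in persisters than in acute cells of 3 (-0.54 in PC9, -0.45 in HCC827, -0.12 in H1975 and -0.56 in HCC2935). Values not called are HCC2935 in the first and H1975 in the second set. VGLL3, another TEAD partner, was higher in persisters of PC9, HCC827 and HCC2935 (2.86, 2.31 and 3.08), with 6 to 17 counts in the DMSO libraries of H1975, where it was not called. WBP2, a YAP-binding coactivator, was higher in acute cells of PC9, H1975 and HCC2935.

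The state of the cells gives the setting of these values. Of 12 genes induced by ERK signalling, 11 were called lower in acute cells of PC9, 10 of HCC827, 10 of H1975 and 12 of HCC2935, and 0 higher, beside 68.5%, 42.3%, 44.9% and 47.1% of all genes called. In persisters 11, 6, 11 and 11 were called lower and 0, 1, 1 and 0 higher, beside 71.3%, 36.7%, 45.7% and 52.5%. DUSP6, an ERK phosphatase, changed in acute cells by -6.00 in PC9, -3.40 in HCC827, -3.57 in H1975 and -5.52 in HCC2935, and in persisters by -4.82 in PC9, -0.34 in HCC827, -2.90 in H1975 and -3.73 in HCC2935, not called in HCC827. All 12 proliferation genes fell in acute cells and in persisters of every line. Long washout against persisters called 12 higher in PC9 and 10 in HCC2935, beside 17.3% and 5.16% of all genes called, whereas the list had medians of -0.06 in HCC827 and -0.27 in H1975. Of the genes shared with serum response factor (SRF), MYL9 and TAGLN, contractile and actin-binding proteins, rose in persisters of all 4 lines. TAGLN changed by 3.61 in PC9, 3.30 in HCC827, 1.65 in H1975 and 2.56 in HCC2935. Its list gave 6 higher and 3 lower in PC9, 5 higher and 0 lower in HCC827, 6 higher and 5 lower in H1975 and 4 higher and 3 lower in HCC2935 of 15, 13, 15 and 13 tested. The share called was thus below that of all genes in PC9, near it in HCC827 and HCC2935 and above it in H1975. The fibroblast list, a check for mesenchymal features, summed to 6.17 to 8.44 TPM in DMSO and 13.9 to 18.5 TPM in persister libraries of PC9, 5.26 to 9.46 and 23.9 to 56.1 in HCC827, 24.4 to 60.3 and 42.0 to 117 in H1975, and 26.9 to 33.6 and 43.7 to 80.5 in HCC2935. Of its 5 genes, 4, 4, 2 and 4 were below 1 TPM in every DMSO library and 4, 1, 1 and 3 in every persister library. The part these markers have in the target gene values was not tested.

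Across the 20 group means, each centred on its line, the genes most like CCN2 among 11400 were GASK1B (r = 0.96), THBS1 (r = 0.96) and BDNF (r = 0.96) (Pearson, log2(TPM + 1)), and those most like ANKRD1 were MAP1B (r = 0.97), SLAIN2 (r = 0.97) and TGFB2 (r = 0.95). CCN1 was nearest to CD59 (r = 0.94), MTCL1 (r = 0.94) and PARVA (r = 0.93), AMOTL2 to IDUA (r = 0.97), TMEM86A (r = 0.96) and BSDC1 (r = 0.96), YAP1 to CAV1 (r = 0.95), SMARCAL1 (r = 0.90) and ITGB6 (r = 0.88), and WWTR1 to AREG (r = 0.89), PUS7L (r = 0.86) and NABP2 (r = 0.85). On CPM the 3 nearest were the same for WWTR1 and AMOTL2, 2 of 3 for YAP1, CCN1 and CCN2, and 1 of 3 for ANKRD1, and ITGB6 had r = 0.70 with YAP1 and rank 96. Among the 10 genes, CCN1 and CCN2 had r = 0.83, and CCN2 and ANKRD1 r = 0.88, whereas WWTR1 and CCN2 had r = -0.01 and YAP1 and CCN2 r = 0.18, which turned to -0.22 on CPM. TEAD1 was like CCN1 (r = 0.92) and CCN2 (r = 0.88). These are descriptions over 20 means that share lines, arms and libraries, and no p was computed.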

How the data were processed

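RNA of 60 libraries (4 lines, 5 arms, 3 biological replicates) was sequenced with an Illumina mRNA kit. Per the labels, the authors used HISAT2 2.1.0 and Salmon 0.8.2 on hg38, and the annotation and strand setting are not given in the sources used here. They deposited estimated counts per gene symbol, not normalized between libraries, and log2 values of TPM with a pseudocount of 0.01, for 19712 symbols. Libraries held 17.7 to 49.1 M estimated counts. Rounded counts were tested with edgeR 4.0.16 under R 4.3.3 (TMM, filterByExpr at its default, quasi-likelihood F-test, two-sided, Benjamini-Hochberg adjustment over all genes tested, calls at an adjusted p under 0.05), in each line on the 6 libraries of the arms compared. Line differences were F-tests of 3 interaction terms over 24 libraries, and DMSO levels were compared over 12 libraries. TMM-scaled CPM were computed from the deposited counts. The scripts were tested on simulated data.

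Groups, doses, times and replicate numbers came from the labels. Deviations of same-numbered libraries correlated between -0.645 and 0.694. The numbers were taken to pair the samples where every pair had r over 0.1, which was so in 3 of 24 line comparisons (short washout against persisters in HCC827 and in H1975, and acute osimertinib against DMSO in HCC2935), and there results with the replicate as a block are given beside the others where they differ. This rule infers the pairing from the data being tested, and whether the samples were in fact paired is not known. The alternatives were DESeq2 1.42.0, limma 3.58.1 on the deposited log2 TPM, other scalings and count filters, a threshold of 0.01, the replicate block, all 15 libraries of a line, and leaving out each replicate. The 10 genes, the gene lists and the tests were chosen with earlier results of these data known. Of each list, genes called in the same direction in at least 3 lines were named, at most 6 per comparison. For likeness, genes with a mean TPM of at least 1 in every line were ranked on log2(TPM + 1), and the 3 nearest were named. Promoter sequences were read from RefSeq (GRCh38.p14) and positions from GENCODE 29. Python 3.11.15 with pandas 2.3.3, numpy 2.4.6 and matplotlib 3.10.9 was used.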

Additional observations from a re-analysis of the deposited data

Results flagged for a closer look

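The effect of acute osimertinib differed between the 4 lines for 9 of the 10 genes by the interaction of line and arm, beside 40.5% of all genes. With limma on log2 TPM and with the replicate block it differed for 7 each. The edgeR adjusted p was 3.81e-06 for ANKRD1, 0.000446 for TEAD1, 0.000642 for TEAD2, 0.00228 for CCN1, 0.00594 for WWTR1, 0.00674 for TEAD4, 0.0116 for TEAD3, 0.0357 for YAP1 and 0.0443 for CCN2. WWTR1 was lower in all lines by its fitted change, from -1.31 in HCC2935 to -0.35 in HCC827, and TEAD2 and TEAD3 were higher, while for ANKRD1, CCN1, CCN2, TEAD1, TEAD4 and YAP1 the signs of the fitted changes also differed. The effect in persisters differed for 8 of the 10 genes, beside 61.6% of all genes. The edgeR adjusted p was 1.52e-06 for ANKRD1, 4.15e-05 for TEAD3, 0.000173 for YAP1, 0.000279 for TEAD2, 0.0158 for WWTR1, 0.0223 for CCN1, 0.0307 for CCN2 and 0.0366 for TEAD4. For CCN2, CCN1 and TEAD2 the fitted persister changes were positive in every line, for WWTR1 and TEAD4 negative, and for ANKRD1 only PC9, at -0.15, lay below 0, without a call. These signs are those on CPM. On TPM the means of persisters were above DMSO for WWTR1 of PC9 (43.1 and 39.5), TEAD4 of HCC2935 (37.4 and 34.7), ANKRD1 of PC9 (28.97 and 26.7) and YAP1 of PC9 (95.6 and 87.0), none of them called. By edgeR, YAP1 was called against DMSO in HCC2935 persisters alone, at 0.39, beside -0.13, -0.25 and -0.10 in PC9, HCC827 and H1975.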

How the results depend on the processing

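Of 98 calls over the 6 comparisons, DESeq2, size factors of DESeq2 in edgeR and a filter of at least 10 counts in every library kept 98, library size scaling 96, no filter 94, limma on log2 TPM 94, all 15 libraries of a line 93, the replicate block 90 and a threshold of 0.01 kept 73. Only TEAD3 of PC9 persisters against acute cells turned its sign, from -0.26 to 0.0029 with limma on log2 TPM. Leaving out 1 library kept 510 of 588 refits of these calls, lost 78 and turned none, and the calls lost are named with their genes above. Short washout against persisters, with 3 calls, had 1 at a threshold of 0.01, 1 with all 15 libraries, 5 with DESeq2 and 7 with the replicate block. Long washout against persisters, with 3 calls, had 0 at 0.01. Without single libraries it had 1 to 6, with 1 on leaving out PC9 long washout replicate 1 or 2 or any PC9 persister library, and 6 without HCC2935 long washout replicate 1. Line differences of the persister effect went from 8 genes to 4 at 0.01, and those of short washout from 0 to 2 with DESeq2 and 2 with the replicate block. Summed over the lines, the block and the other settings left the other counts of calls within 1.5 times. Within single lines the acute count of H1975 went from 6 to 3 with the block, persisters against acute cells of H1975 from 1 to 2 with DESeq2, short washout of HCC2935 from 0 to 1 with DESeq2 and long washout against persisters of HCC2935 from 1 to 0 with the block. The causes were not tested. With single libraries left out, the counts were 18 to 24 for acute osimertinib against DMSO, 25 to 28 for persisters against DMSO, 18 to 21 for persisters against acute cells, 3 to 4 for short washout, 22 to 25 for long washout against DMSO, 7 to 9 and 6 to 9 for the line differences, and 0 and 10 in all refits for the line difference of short washout and for DMSO levels. Over all genes, PC9 short washout had 3221 calls and 2023 with the block. PC9 long washout against persisters had 2496 and 4226 with DESeq2. HCC2935 had 503, 1163 with DESeq2 and 244 with the block after short washout, and 745, 1702 and 38 after long washout. H1975 had 0, 399 and 1697 after short washout and 2 and 72 with DESeq2 after long washout, and HCC827 0 and 7 with DESeq2 after long washout and 0 and 2 with the block after short washout. With 3 replicates per group, small changes of YAP1 and the TEAD genes rest on the spread of few libraries.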
